A study of Mus musculus with 15 samples.

Results

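The cytosolic sulfotransferases described here are 8 mouse genes, Sult1a1, Sult1b1, Sult1c2, Sult1d1, Sult1e1, Sult2b1, Sult3a1 and Sult5a1. They were taken by name from the 37991 gene identifiers of the count table, and 7 of the 8 passed the filter on low counts that left 14258 genes for testing. Sult2b1 was the member that did not pass. The list was selected on this same table, with fold changes between these groups known, so the members' own levels and fold changes are given as a description, without p-values. Where a member is said to be past the adjusted threshold of the fit over all genes, that is part of the description and supports nothing. Adjusted p-values are printed only for genes outside the list.

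RNA from whole liver was sequenced in 3 groups of 5 female C57BL/6 mice on a chow diet. Young wild-type mice (young WT) were 90 days old, and old wild-type mice (old WT) were 600 days old. Old knockout mice (old KO) had the same age and carried a whole-body deletion of S6K1 (ribosomal S6 kinase 1, encoded by Rps6kb1). WT and KO mice came from heterozygous breeding. No young KO group was sequenced, so genotypes could be compared only in old mice, and old KO against young WT joins age and genotype. Libraries are named by group and by the number in their titles.

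Cytosolic sulfotransferases move a sulfonate group from the donor PAPS (3′-phosphoadenosine-5′-phosphosulfate) onto hydroxyl or amino groups of small molecules. The products are more soluble in water and often lose hormone or drug activity. In the liver these enzymes conjugate phenols, catecholamines, thyroid hormones, estrogens, other steroids, bile acids and many drugs, beside the glucuronosyltransferases. Several members are known to differ between the sexes in mouse liver, with Sult3a1 and the Sult2a genes higher in females. Nuclear receptors such as CAR and PXR, and growth hormone acting through STAT5, are among their known regulators.

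Levels are in CPM, which are counts divided by the TMM-scaled library total. Total counts per library were 21801754 to 38065359, which makes counting error small for members above a few CPM. Rps6kb1 lay at 33.3 to 45.4 CPM in the 10 WT libraries and at 15.2 to 20.8 CPM in the 5 old KO libraries, so each library had the level of its labelled genotype. Xist was between 773 and 1267 CPM in all 15 libraries, and of 4 Y-linked genes Ddx3y and Kdm5d had no count, Eif2s3y had 3 counts in all and Uty was at 0.259 to 0.713 CPM. Hepatocyte markers were abundant in every library, with a summed level of 89418 to 153229 CPM, and their ranges overlapped between the 3 groups. Old WT 7 stood apart from the other old libraries on the second principal component (13.1% of the variance), and the tested members were also fitted without it. Whole liver was measured, so fewer cells of a type and less RNA per cell cannot be told apart.

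Sult3a1 has a near copy, and their coding sequences are shown because reads of Sult3a1, the member with the largest age difference, could be confused with those of this copy. Sult3a1 (ENSMUSG00000069668) lies on the plus strand of chromosome 10 from 33583741 to 33599322 (NCBIM37, the same build as mm9). Gm4794 (ENSMUSG00000090298), for which Sult3a2 is a synonym in RefSeq, spans 33486230 to 33501921 of the same chromosome, on its minus strand. Both coding sequences have 882 bases and differ at 80 of them, an identity of 90.93%. The first 90 coding bases of each follow, 5′ to 3′, from the GENCODE M1 transcripts, with the 16 bases that differ in capitals.
Sult3a1: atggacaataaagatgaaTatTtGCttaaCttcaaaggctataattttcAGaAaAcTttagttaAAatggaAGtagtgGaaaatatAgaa
Gm4794: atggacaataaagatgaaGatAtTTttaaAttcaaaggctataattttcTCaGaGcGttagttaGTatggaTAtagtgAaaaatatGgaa
Elsewhere they hold 3 identical runs of at least 50 bases, the length of a read. The longest, of 93 bases, spans coding positions 544 to 636, and a read from inside it cannot be assigned to either gene by its sequence.
Shared run: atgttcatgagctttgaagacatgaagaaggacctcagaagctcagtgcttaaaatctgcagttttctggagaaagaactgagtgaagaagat
In all, 68 of the 1039 possible 50-base words of the Sult3a1 transcript (6.54%) also occurred in Gm4794. The other words of Sult3a1 occurred in no transcript of another protein-coding gene, so most of its reads can be told from those of its near copy.

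The other members are far less alike. The closest pair of members was Sult1b1 and Sult1d1, at 61.65% identity of their coding sequences, and Sult3a1 was at most 54.28% identical to any other member. Sult1b1, Sult1d1 and Sult1e1 lie side by side within 87942364 to 88020636 of chromosome 5, all on its minus strand. Sult1a1, also on a minus strand, spans 133816379 to 133819946 of chromosome 7, and its end overlaps Ccdc101 on the other strand. It shared 12 of its 1549 words of 50 bases (0.775%) with that gene. The remaining members are on minus strands too. Sult5a1 spans 125666747 to 125682215 of chromosome 8, Sult1c2 spans 53968962 to 53985664 of chromosome 17, and Sult2b1 spans 52985353 to 53014982 of chromosome 7. No 50-base word of Sult1b1, Sult1c2, Sult1d1, Sult1e1, Sult2b1 or Sult5a1 occurred in a transcript of another protein-coding gene. Only exact matches to protein-coding transcripts were searched, so pseudogenes and noncoding genes were not compared.

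Levels of different genes were compared per kilobase of annotated exon. In young WT livers the mean level was 322 CPM per kb for Sult1a1, 155 for Sult3a1 and 115 for Sult1d1. A second tier held Sult1b1 at 7.50, Sult5a1 at 6.59 and Sult1c2 at 2.35 CPM per kb, with Sult1e1 at 0.888 and Sult2b1 at 0.0182. In old WT livers the order was Sult1a1 (298), Sult1d1 (90.2), Sult1e1 (11.5), Sult1b1 (10.7), Sult1c2 (5.87), Sult3a1 (5.54) and Sult5a1 (2.38 CPM per kb). Sult3a1 thus stood second of the 8 genes in young WT and sixth in old WT. In old KO livers the means were 405 for Sult1a1, 115 for Sult1d1, 44.4 for Sult3a1, 15.8 for Sult1b1, 11.9 for Sult1e1, 7.20 for Sult5a1 and 5.83 CPM per kb for Sult1c2. Sult1a1 was above every other member in every library of both old groups, and Sult1d1 was second there without overlap with the third. In young WT the ranges of Sult1a1 and Sult3a1 overlapped (212 to 366 and 87.8 to 249 CPM per kb), as did those of Sult3a1 and Sult1d1. Among the low members, neighbours in the order overlapped in each group, apart from Sult1b1 over Sult1c2 in old WT, and Sult2b1 lay below all other members in all 3 groups.

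**Figure D1:**
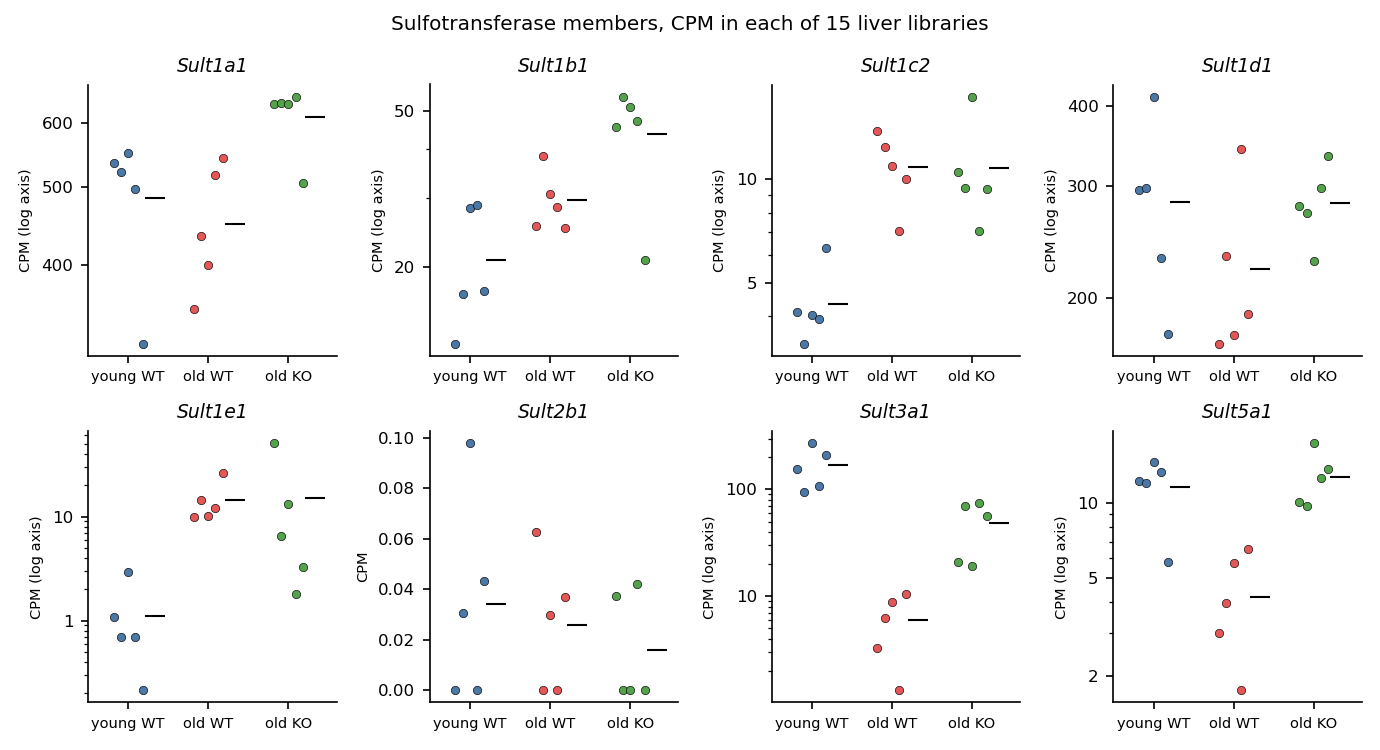
CPM of the 8 members in each of the 15 libraries, by group (young WT, old WT, old KO), with each point 1 library and each horizontal bar the group mean; axes are logarithmic except that of Sult2b1. Sult3a1 shows 3 separate bands, at 95.5 to 271, 1.32 to 10.4 and 19.1 to 74.5 CPM, while Sult1a1 and Sult1d1 overlap between young and old WT.

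Sult3a1, an enzyme known for conjugating amines, had 155, 95.5, 271, 109 and 211 CPM in young WT 1, 2, 3, 4 and 6. The same gene had 3.25, 6.22, 8.92, 1.32 and 10.4 CPM in old WT 1, 4, 5, 7 and 10. Old KO 1, 2, 4, 5 and 6 had 20.9, 70.3, 19.1, 74.5 and 56.7 CPM. All 5 old WT libraries lay below all 5 old KO libraries, and these below all 5 young WT libraries. The log2 fold change was -4.80 (SE 0.548) in old WT against young WT, 3.0 (SE 0.512) in old KO against old WT and -1.80 (SE 0.474) in old KO against young WT. Old KO livers therefore lay between both WT groups, with a mean of 48.3 ± 26.7 CPM beside 168 ± 73.1 CPM in young WT and 6.03 ± 3.8 CPM in old WT (SD, n = 5 each). Without old WT 7, the lowest library, the values were -4.54 with age and 2.74 with genotype. Over the fits that each left out 1 library, the genotype difference stayed between 2.74 and 3.28, and the age difference between -5.08 and -4.54. The genotype difference was no longer past the adjusted threshold of 0.05 without old WT 1, old WT 4, old KO 2, old KO 5 or old KO 6, which gave 2.84, 3.01, 2.82, 2.78 and 2.94. A fit with the replicate number as a block missed the threshold too.

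Gm4794 was outside the list, but it belongs to the family from which the members were listed with results of these data known. Its values and adjusted p-values are therefore a description and no independent support. Its sequence and its reads are also partly shared with Sult3a1. Its values were 7.53, 2.11, 20.6, 3.25 and 10.6 CPM in young WT, 0.406, 0.320, 0.656, 0.220 and 1.10 CPM in old WT, and 0.711, 4.61, 2.53, 3.14 and 4.41 CPM in old KO, in the library order above. Young WT 3 was the highest and young WT 2 the lowest of the young livers for both Sult3a1 and Gm4794, and old WT 10 the highest and old WT 7 the lowest of the old WT livers. With age Gm4794 fell by 4.01 on the log2 scale (SE 0.647, edgeR adjusted p 0.00107), without overlap of the groups. In old KO against old WT it was 2.5 higher (SE 0.655), with an edgeR adjusted p of 0.108 that missed the threshold, and old KO 1 lay inside the old WT range. The part of reads shared by the pair in these values was not tested.

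Sult5a1 was low in all groups and followed the same order as Sult3a1 between old WT and the other groups. The levels were 12.3, 12, 14.7, 13.4 and 5.78 CPM in young WT 1, 2, 3, 4 and 6. They were 3.0, 3.95, 5.73, 1.76 and 6.54 CPM in old WT 1, 4, 5, 7 and 10, whereas 10.1, 9.70, 17.4, 12.6 and 13.7 CPM were found in old KO 1, 2, 4, 5 and 6. Young WT 6 was the only young library inside the old WT range, and every old KO library lay above every old WT library. The log2 fold change was -1.47 (SE 0.302) with age and 1.59 (SE 0.304) with genotype at 600 days. Old KO and young WT livers overlapped widely, with a difference of 0.12 (SE 0.289). Without old WT 7 the values were -1.27 with age and 1.40 with genotype. The genotype difference missed the threshold without old WT 1 (1.49), old WT 4 (1.57), old KO 2 (1.67), old KO 4 (1.45), old KO 5 (1.59) or old KO 6 (1.57). It also missed the threshold in limma voom (1.68) and in a fit with the replicate number as a block. Its direction was higher in old KO in all 15 leave-out fits and all 10 other settings.

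Sult1e1, the estrogen sulfotransferase, had a wide spread inside groups. It was at 1.08, 0.702, 2.90, 0.693 and 0.216 CPM in young WT 1, 2, 3, 4 and 6, and at 9.90, 14.4, 10.1, 12 and 26.0 CPM in old WT 1, 4, 5, 7 and 10. All old WT livers were above all young WT livers, a log2 fold change of 3.67 (SE 0.805) that stayed between 3.35 and 4.37 when single libraries were left out. In old KO 1, 2, 4, 5 and 6 it was at 50.4, 6.46, 13.3, 1.8 and 3.25 CPM. These values overlapped both WT groups, with old KO 5 below the highest young WT library and old KO 1 above every old WT library. The genotype difference was 0.06 (SE 0.675) with all libraries, -1.22 without old KO 1 and 0.38 at the other end of the leave-out range, so no direction held. The coefficient of variation of Sult1e1 was 93.2% in young WT, 46.2% in old WT and 135% in old KO, against medians over all tested genes of 16.0%, 14.0% and 14.3%. For comparison, the coefficient of variation of Sult1a1 was 19.5%, 17.7% and 9.64% in the same groups.

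Sult1c2, which acts on phenolic compounds, was higher in old WT and in old KO than in young WT. It had 4.11, 3.33, 4.04, 3.92 and 6.29 CPM in the young WT libraries and 13.8, 12.4, 10.9, 7.07 and 10 CPM in the old WT libraries. The old KO libraries had 10.5, 9.44, 17.3, 7.09 and 9.38 CPM. No old library of either genotype reached down to the young range. The log2 fold change was 1.33 (SE 0.234) in old WT against young WT, 1.32 (SE 0.235) in old KO against young WT and -0.01 (SE 0.226) between the old groups. Young WT 6 was the highest young library, and without it the age difference was 1.5.

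Sult1b1, known for sulfonation of thyroid hormones, had its lowest values in young WT and its highest in old KO. In young WT 1, 2, 3, 4 and 6 the levels were 12.8, 17.1, 28.3, 28.8 and 17.4 CPM. In old WT 1, 4, 5, 7 and 10 they were 25.4, 38.4, 30.8, 28.4 and 25.2 CPM, and in old KO 1, 2, 4, 5 and 6 they reached 45.5, 54.4, 51.4, 47.1 and 20.9 CPM. Old KO 6 lay below every old WT library, while the other 4 old KO libraries lay above all of them. The differences were 0.51 (SE 0.247) with age and 0.57 (SE 0.245) with genotype, neither past the threshold, and 1.07 (SE 0.248) in old KO against young WT, which was past it. Without old KO 6 the genotype difference was 0.74 and still missed the threshold.

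Sult1a1, the main phenol sulfotransferase of the liver, had 536, 522, 552, 498 and 320 CPM in young WT and 353, 434, 400, 517 and 544 CPM in old WT. Old KO libraries had 634, 635, 633, 647 and 506 CPM. Of the old KO livers 4 were above every WT liver of either age, and old KO 6 was not. The log2 differences were -0.11 (SE 0.147) with age, 0.44 (SE 0.147) with genotype and 0.33 (SE 0.147) in old KO against young WT, and none passed the threshold. Sult1d1, which sulfonates catecholamines in the mouse, had 295, 297, 414, 231 and 176 CPM in young WT, 170, 233, 175, 342 and 189 CPM in old WT and 279, 272, 228, 298 and 335 CPM in old KO. The 3 groups overlapped, and its differences were -0.35 (SE 0.215), 0.35 (SE 0.215) and 0.00 (SE 0.215). Old WT 7 was the highest old library for Sult1d1, in contrast to its lowest rank for Sult3a1 and Sult5a1, and without it the differences were -0.55 with age and 0.55 with genotype.

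Sult2b1, a sulfotransferase for cholesterol and pregnenolone, was near absent. It had 5 counts over the young WT libraries, 4 over the old WT libraries and 2 over the old KO libraries, and no library held more than 3 counts. An upper limit of 3 counts corresponds to 0.079 to 0.139 CPM per library, and no difference between groups was detectable at this depth.

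Among the 7 members that could be tested, 4 were past the threshold with age, Sult1c2 and Sult1e1 higher and Sult3a1 and Sult5a1 lower, beside 18.8% of all genes tested (9.92% higher and 8.91% lower). With genotype 2 were past it, Sult3a1 and Sult5a1, both higher in old KO, beside 0.533% of all genes in either direction and 0.112% in the higher direction. In old KO against young WT 4 were past it, Sult1b1, Sult1c2 and Sult1e1 higher and Sult3a1 lower, beside 23.3% of all genes (12% higher and 11.3% lower). CPM ranges did not overlap for 3 members with age (background 11.4%), for 2 with genotype (3.20%) and for 2 in old KO against young WT (13.9%). Since the members were named with these contrasts known, nothing is read from the counts. Without old WT 7 the age and genotype differences were -0.16 and 0.49 for Sult1a1, 0.53 and 0.55 for Sult1b1, 1.46 and -0.14 for Sult1c2, and 3.73 and -0.01 for Sult1e1. The median log2 fold change of the tested members was -0.11 with age and 0.44 with genotype, and that of all tested genes was 0.01 and 0.00. Both the age and the genotype contrast use the same 5 old WT libraries, so low values there push the 2 differences of a gene in opposite directions.

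**Figure D2:**
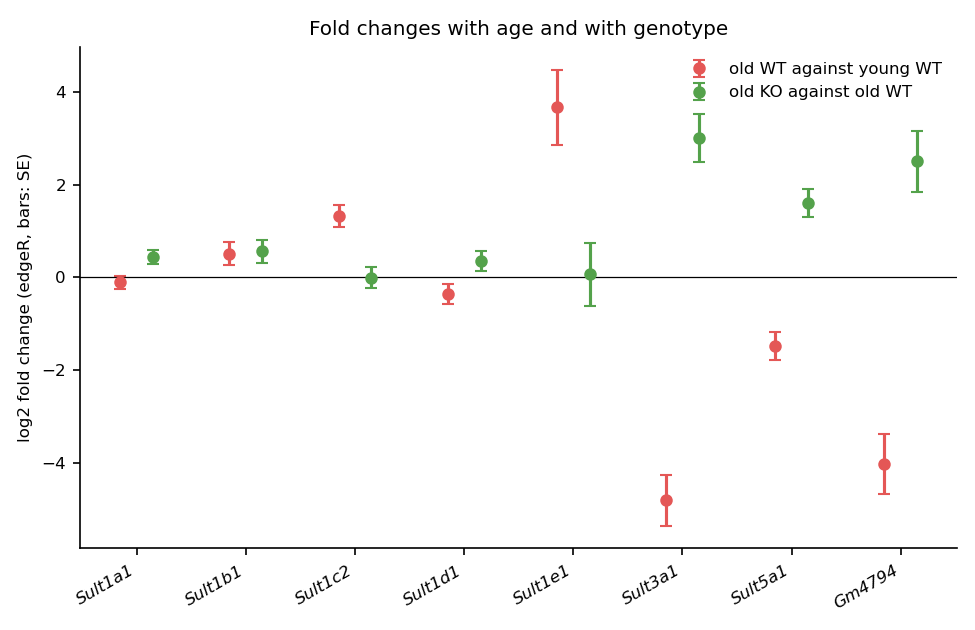
Log2 fold changes of the 7 tested members and of Gm4794 in old WT against young WT (red) and in old KO against old WT (green), with bars of 1 SE from the edgeR fit. Sult3a1 (-4.80 and 3.0) and Sult5a1 (-1.47 and 1.59) have values on opposite sides of 0, while Sult1c2 (1.33) and Sult1e1 (3.67) differ with age and lie at -0.01 and 0.06 with genotype.

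The other cytosolic sulfotransferases are the rest of the family from which the members were listed with results of these data known. Their values and adjusted p-values are therefore a description too, and no independent support. The table held 12 of them, 8 of which could be tested, and Sult1c1, Sult4a1, Sult6b1 and Gm766 (Sult6b2) were too low. With age 5 of the 8 changed (62.5%, beside 18.8% of all genes), 4 higher and 1 lower, the last being Gm4794. The 4 that rose belong to the Sult2a family, which conjugates hydroxysteroids such as dehydroepiandrosterone and bile acids. Sult2a1 was at 32.3 to 286 CPM (median 216) in young WT, at 567 to 773 CPM (median 580) in old WT and at 592 to 852 CPM (median 640) in old KO, without overlap between young and old. Its log2 fold change with age was 1.94 (SE 0.408, edgeR adjusted p 0.00480). Sult2a2 rose by 2.17 (SE 0.376, adjusted p 0.00162), Sult2a3 by 5.42 (SE 0.946, adjusted p 0.00166) and Sult2a5 by 3.47 (SE 0.501, adjusted p 0.000526). Old WT 7 had 10.9 CPM of Sult2a3 while the other old WT livers had 155 to 208 CPM, and it lay inside the young WT range of 0.183 to 12.3 CPM.

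Sult2a4 and Sult2a6 fell into high and low libraries inside each group. Old WT 4 and old WT 5 had 1.56 and 1.85 CPM of Sult2a4 while the other old WT livers had 19.5 to 20.9 CPM, and the same libraries had 0.960 and 1.70 CPM of Sult2a6. Old KO 5 was likewise low for both, at 1.64 and 1.09 CPM. Their age differences of 1.78 and 1.76 did not pass (edgeR adjusted p 0.173 and 0.172). 2810007J24Rik (Sult2a8) was -0.76 with age (adjusted p 0.220) and 1.06 with genotype (adjusted p 0.324), and old WT 7 was far the lowest at 33.4 CPM. With genotype none of the 8 passed in edgeR, where 2 had an unadjusted p under 0.05, while DESeq2 called 1 and limma voom 0. In old KO against young WT 6 rose (75%, beside 23.3% of all genes), all of the Sult2a family. The Sult2a1, Sult2a2 and Sult2a5 transcripts shared 33.3%, 63.4% and 34.7% of their 50-base words with other genes, so the split of counts among them is uncertain.

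**Figure D3:**
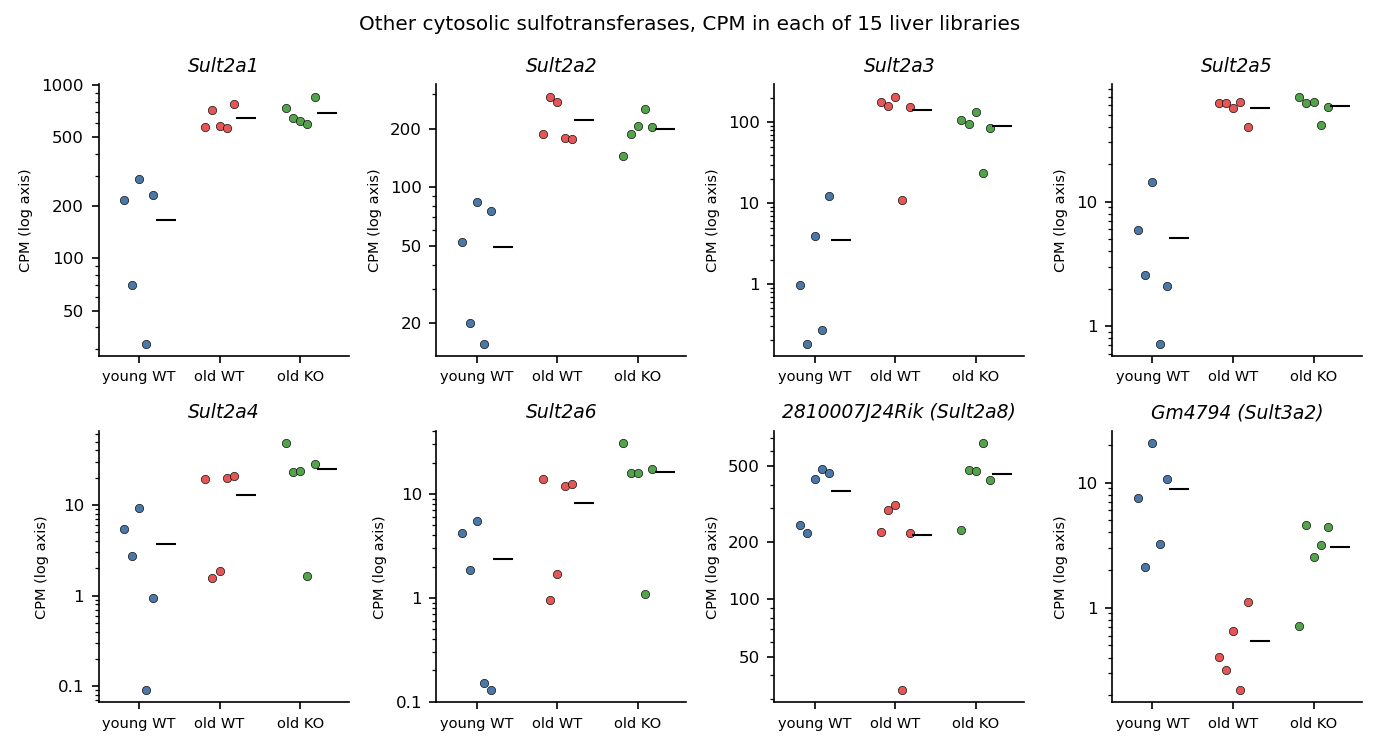
CPM (logarithmic axes) of the 8 other cytosolic sulfotransferases that passed the filter, in each of the 15 libraries by group, with horizontal bars at the group means. Sult2a1, Sult2a2 and Sult2a5 lie higher in all old libraries than in any young library, while Gm4794 is lowest in old WT, at 0.220 to 1.10 CPM.

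Summed over the 6 numbered Sult2a genes and 2810007J24Rik, the range was 322 to 831 CPM in young WT livers, 885 to 1523 CPM in old WT livers and 1361 to 1671 CPM in old KO livers. The members together had 737 to 1286, 578 to 910 and 945 to 1087 CPM. As a share of the summed CPM of all cytosolic sulfotransferases in the table, the members took 48.0% to 74.5% in young WT livers. The share was 30.9% to 50.7% in the old WT group and 36.1% to 43.5% in the old KO group. Old WT 7 gave the highest old WT share, and the next was 36.6%.

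The wider pathway was followed in 10 lists of genes that hold no member, 201 genes in the table and 187 of them tested, counting each gene once. The lists include the 8 other tested sulfotransferases above, of which 5 changed with age and 6 in old KO against young WT. The lists too were chosen with earlier results of these data known, so their counts are a description. With age 69 changed, 44 higher and 25 lower (36.9%, beside 18.8% of all genes). With genotype 1 changed, Cyp2c54 (0.535%, beside 0.533%), and in old KO against young WT 82 did (43.9%, beside 23.3%).

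Genes that make, move and clear the sulfonate donor were nearly all without a change past the threshold in edgeR. With age 2 were higher and 2 lower at an unadjusted p under 0.05 in edgeR, while DESeq2 and limma voom called 2 each. In old KO against young WT edgeR called 2 (18.2%, beside 23.3% of all genes), Slc35b3 lower and Papss1 higher. Of 11 genes of PAPS synthesis and transport and of sulfate handling, 1 changed with age (9.09%, beside 18.8% of all genes). This was Slc35b3, a PAPS transporter of the Golgi, which fell by 0.49 (SE 0.121, edgeR adjusted p 0.0109). Of 17 tested Golgi sulfotransferases, which modify glycans and proteins, 2 changed with age (11.8%, beside 18.8% of all genes). Chst15 fell by 0.54 (SE 0.136, adjusted p 0.0135) and Chst11 rose by 0.96 (SE 0.281, adjusted p 0.0266). Among the sulfatases and their helpers, which remove sulfate groups, 3 of 12 rose and 2 fell with age (41.7%, beside 18.8% of all genes). Sulf1 rose by 1.67 (SE 0.489, adjusted p 0.0266), Ids by 0.59 (SE 0.119, adjusted p 0.00395) and Arsb by 0.29 (SE 0.0874, adjusted p 0.0286), while Arsg fell by 0.68 (SE 0.135, adjusted p 0.00358) and Sulf2 by 0.65 (SE 0.125, adjusted p 0.00303). Of 17 genes of other conjugation reactions 2 rose with age and none fell (11.8%, beside 18.8% of all genes). They were Nat1, an N-acetyltransferase (1.16, SE 0.172, adjusted p 0.000625), and Hnmt, the histamine methyltransferase (0.83, SE 0.138, adjusted p 0.00136).

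With age 12 of 29 tested regulators rose and 3 fell at an unadjusted p under 0.05 in edgeR. Past the adjusted threshold 8 rose and none fell (27.6%, beside 18.8% of all genes). They included Ghr, the growth hormone receptor (0.81, SE 0.179, adjusted p 0.00618), and Esr1, the estrogen receptor alpha (0.70, SE 0.224, adjusted p 0.0391). Of 21 genes known to respond to CAR or PXR, 7 rose and 4 fell with age (52.4%, beside 18.8% of all genes). Gstm3 rose by 1.86 (SE 0.397, adjusted p 0.00515), Gsta2 by 1.64 (SE 0.194, adjusted p 0.000147) and Cyp2c55 by 1.5 (SE 0.466, adjusted p 0.0347). Cyp2c54, a cytochrome P450, fell from 192 ± 72.5 CPM in young WT to 18.7 ± 11.8 CPM in old WT and was at 192 ± 183 CPM in old KO (SD, n = 5 each). Its log2 fold change was -3.35 with age (SE 0.582, adjusted p 0.00162) and 3.36 with genotype (SE 0.583, adjusted p 0.0223), and the old KO livers ranged from 50.6 to 497 CPM, all above all old WT livers. Cyp2c54 belongs to a family of closely related genes, among which short reads may be split.

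Genes known for sex-dependent expression in liver were followed in both directions, beside 18.8% of all genes changed with age. Of 29 genes known as higher in female liver, 11 rose and 1 fell, and of 25 tested genes known as higher in male liver, 10 fell and 2 rose. The exceptions were Cyp4a14, which fell by 1.27 (SE 0.366, adjusted p 0.0244), and Hsd3b2 and Akr1c20, which rose by 0.70 and 0.95 (adjusted p 0.00984 and 0.0109). A1bg rose by 4.61 (SE 0.847, edgeR adjusted p 0.00237), from 11.1 to 278 CPM in the young WT libraries to 1370 to 5094 CPM in the old WT libraries. Hao2, Cyp3a41b and Cyp3a16 rose by 4.43, 4.87 and 3.01 (adjusted p 0.000499, 0.00562 and 0.0430). Among the male-predominant genes Cyp2d9 fell by 3.66 (SE 0.493, adjusted p 0.000342), Serpina1e by 3.91 (SE 1.22, adjusted p 0.0350), Susd4 by 3.08 (SE 0.464, adjusted p 0.000710) and Mup3 by 2.24 (SE 0.442, adjusted p 0.00348). With genotype none of these 54 genes passed in edgeR, where 13 had an unadjusted p under 0.05, while DESeq2 called 4 and limma voom 0. Sult3a1 is itself known as female-predominant and was lower in old WT, opposite to the 11 genes that rose. What the sex-dependent genes have to do with the members' values was not tested.

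Genes of steroid and bile acid metabolism, whose products are substrates of the family, went both ways with age. Of 19 genes 6 were higher and 5 lower (57.9%, beside 18.8% of all genes). Srd5a2, a steroid 5-alpha-reductase, rose by 2.19 (SE 0.342, edgeR adjusted p 0.000930) and Abcc4, an exporter of steroid and bile acid conjugates, by 1.81 (SE 0.238, adjusted p 0.000270). Cyp39a1 and Cyp8b1, enzymes of bile acid synthesis, fell by 1.48 each (SE 0.340 and 0.271, adjusted p 0.00753 and 0.00231). With genotype none of the 19 passed in edgeR, where 2 had an unadjusted p under 0.05, while DESeq2 called 1 and limma voom 0.

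Profiles most like those of 4 members were sought over all tested genes, as the smallest root mean square (RMS) difference of mean-centred log2 CPM over the 15 libraries. For Sult3a1 the nearest were Gm4794 (0.85), Cyp2c54 (1.07) and Cyp2d9 (1.28), where the RMS of the Sult3a1 profile itself was 2.23. Ces3b (0.54), Cadm4 (0.57) and Cyp2f2 (0.61) were nearest to Sult5a1, whose own RMS was 0.91. Ces3b, a carboxylesterase, was at 110 to 180 CPM in young WT, 20.2 to 65.5 CPM in old WT and 85.9 to 108 CPM in old KO. Ntrk2 (0.99), Bnc2 (1.09) and Gm15436 (1.15) were nearest to Sult1e1, with an own RMS of 2.06. Ntrk2, a neurotrophin receptor, had 1.34 to 5.02 CPM in the young livers, 30 to 64.4 CPM in the old WT livers and 11.3 to 57.2 CPM in old KO, and old KO 5 was the lowest and old KO 1 the highest old KO library, as for Sult1e1. Vldlr (0.19), Slc22a27 (0.25) and Gclc (0.25) were nearest to Sult1c2, with an own RMS of 0.70. These genes were picked for their likeness, so the likeness is a description.

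**Figure D4:**
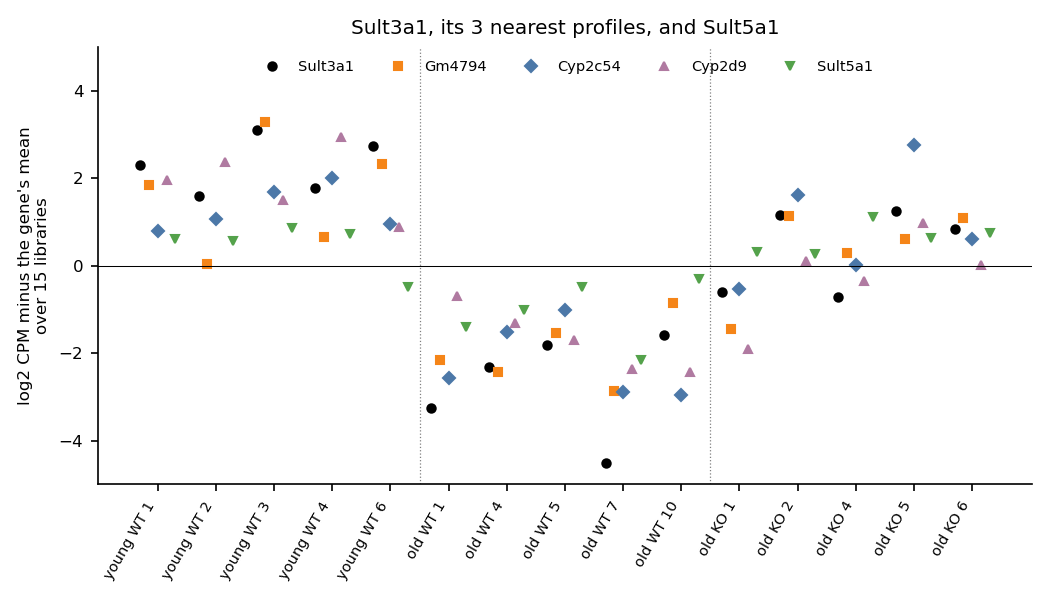
Mean-centred log2 CPM of Sult3a1, of its 3 nearest profiles (Gm4794, Cyp2c54, Cyp2d9) and of Sult5a1 in each of the 15 libraries, with dotted lines between the groups. In all 5 old WT libraries every point lies below 0, and the young WT libraries lie above 0 except for Sult5a1 in young WT 6, while old KO libraries lie on both sides.

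Position was examined through the genes within 200 kb of a member. The table held 104 such neighbours, and 56 were tested. With age 13 changed, 6 higher and 7 lower (23.2%, beside 18.8% of all genes), and with genotype none passed in edgeR, where 7 had an unadjusted p under 0.05, while DESeq2 called 3 and limma voom 0. Near Sult3a1, of 5 tested neighbours, Gm4794 and Rsph4a (-1.21, SE 0.321, adjusted p 0.0168) fell. Near Sult5a1, of 12 tested neighbours, Ankrd11 alone changed, falling by 0.38 (SE 0.0524, adjusted p 0.000407). Around the chromosome 5 trio of Sult1b1, Sult1d1 and Sult1e1, the neighbouring glucuronosyltransferases Ugt2a1 (-0.58, adjusted p 0.466) and Ugt2a3 (0.10, adjusted p 0.586) did not pass with age. Near Sult1a1 were Aldoa, Coro1a, Ccdc101, Nupr1, Eif3c, Taok2 and Mapk3, and near Sult2b1 were Tmem143, Emp3 and Grwd1, with log2 fold changes of -0.50 to 0.91. Ccdc101, which overlaps Sult1a1, rose by 0.28 with age (SE 0.0928, adjusted p 0.0481).

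Some markers of other liver cells changed, beside 18.8% of all genes with age and 0.533% with genotype. Of 10 macrophage markers 2 rose with age and 5 fell in old KO against old WT in edgeR. With genotype all 10 were lower at an unadjusted p under 0.05 in edgeR, while DESeq2 called 7 and limma voom 2. The summed level of these markers was 183 to 420 CPM in young WT livers, 241 to 592 CPM in the old WT group and 144 to 220 CPM in the old KO group. Of 7 markers of B and plasma cells 4 rose with age in edgeR, while DESeq2 called 4 and limma voom 2. The summed level of the 7 went from 5.65 to 13.4 CPM in young WT to 40.5 to 102 CPM in old WT and 55.3 to 679 CPM in old KO. With age 2 of 8 T cell markers rose in edgeR, 2 of 8 endothelial markers fell, 2 of 8 bile duct markers rose, and of 8 stellate and fibroblast markers 1 rose and 1 fell. In the same order of lists DESeq2 called 2, 2, 2 and 3 markers and limma voom 0, 2, 1 and 2. Of 9 hepatocyte markers 2 fell with age, Cps1 (-1.27, adjusted p 0.0197) and Apoa1 (-0.69, adjusted p 0.0241), and with genotype none passed in edgeR, where 1 had an unadjusted p under 0.05, nor in DESeq2 or limma voom. The part of these markers in the members' values was not tested.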

How the data were processed

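Livers were flash frozen, RNA was extracted and stranded poly(A) libraries were sequenced as single-end 50-base reads. The authors mapped reads to mm9 with TopHat2 2.0.11 and deposited raw read counts per gene, made with HTSeq, without normalization or pooling. The annotation and strand setting are not given in the sources used here, so counts of overlapping genes and of near copies are uncertain. Groups and numbers were read from sample titles, and each library was 1 mouse. Replicates all differed beyond sampling noise (30 pairs, chi-square per degree of freedom 18.2 to 118).

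TMM scaling and filterByExpr were applied in edgeR 4.0.16 (R 4.3.3). One quasi-likelihood fit of all 15 libraries gave 3 contrasts, with Benjamini-Hochberg adjustment over 14258 genes, a threshold of 0.05 and a prior count of 2 for log2 CPM. The study's methods name DESeq2, which was an alternative here (1.42.0), beside limma voom (3.58.1), other scalings and filters, thinned counts, and fits without each library in turn. The tests were checked on simulated counts. Positions and transcripts came from GENCODE M1 on NCBIM37, and 290 of 294 list entries matched a gene.

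The members, lists and tests were chosen with earlier results of these data known. Named genes were the members, Rps6kb1, the other cytosolic sulfotransferases, up to 4 genes per list with the largest change past the threshold and a mean of at least 1 CPM, changed neighbours within 200 kb, and the 3 nearest profiles of each member past the threshold. Some regulators that this rule names are not reported here. Other genes (Xist, Ddx3y, Kdm5d, Ugt2a1, Ugt2a3, Chst11, Arsb, Cyp4a14, Hsd3b2, Akr1c20, Cps1 and Apoa1) were named after their values were seen.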

Additional observations from a re-analysis of the deposited data

Results flagged for a closer look

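In 8 of 45 sets of 5 replicates (each of 15 sulfotransferases in each group), 1 library stood far from the other 4 by Dixon's criterion (gap over range above 0.71), where chance gives about 1 in 20. Young WT 6 was the lowest for Sult1a1, at 320 CPM beside 498 to 552, and the highest for Sult1c2, at 6.29 CPM beside 3.33 to 4.11. Old KO 6 was the lowest for Sult1a1, at 506 CPM beside 633 to 647, and for Sult1b1, at 20.9 CPM beside 45.5 to 54.4. Sult1e1 was highest in old WT 10, at 26.0 CPM beside 9.90 to 14.4, and in old KO 1, at 50.4 CPM beside 1.8 to 13.3. Old WT 7 was the lowest for Sult2a3, at 10.9 CPM beside 155 to 208, and old WT 10 the lowest for Sult2a5, at 40.1 CPM beside 56.8 to 63.3. Young WT 6 and old KO 6 had the smallest total counts of the series, 21801754 and 21984658, and the part of depth in their values was not tested.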

How the results depend on the processing

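The age calls of Sult1c2, Sult1e1, Sult3a1 and Sult5a1, and the 4 calls in old KO against young WT, held in all 10 other settings and in all 15 fits that each left out 1 library. Since the members were listed with these contrasts known, this describes the fits and supports no change. The 2 genotype calls did not hold in all of them. Limma voom kept 1 (Sult3a1), the replicate block 0, and the leave-out fits 0 to 2. The replicate numbers do not pair the samples: over 9 same-number pairs the deviations correlated at -0.15 to 0.08, and 0 correlated best with their own number. With the replicate block the counts were 899 of all genes with age (main 2685) and 6 with genotype (main 76), 43 and 0 pathway genes (main 69 and 1), 3 neighbours with age (main 13) and 8 in old KO against young WT (main 13). The genotype difference of Sult1a1 was 0.72 under the block (main 0.44), and its difference in old KO against young WT passed the threshold there (0.38, main 0.33). DESeq2 called 302 genes with genotype (89 higher, 213 lower; main 16 and 60), 9 pathway genes and 3 neighbours. Limma voom called 23. Scaling by total counts gave 121 (11 higher, 110 lower) and 2 pathway genes, and moved the median of all genes by -0.07. The 10 libraries of the contrast alone gave 3 pathway genes and 1 neighbour. Without single libraries the counts with age were 1748 to 3284 (all genes), 53 to 77 (pathway) and 8 to 14 (neighbours), those with genotype 9 to 108, 0 to 3 and 0 to 0, and those in old KO against young WT 2460 to 3829, 65 to 88 and 8 to 14. The genotype count of all genes was 9 without old WT 4. The cause of these differences was not tested, except that leave-out fits hold fewer samples. Genotype differences of Sult1c2 and Sult1e1, near 0, changed sign between settings. Depth limits Sult2b1, which had 11 counts in all.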
